A study of Mus musculus with 58 samples.

Results

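The livers of 5 Muta™Mouse males given 50 mg/kg-bw/day of indeno(123,cd)pyrene (IP) were compared with those of 4 males given the olive oil vehicle alone, which made 9 of the 19 liver arrays and 9 of the 58 arrays in the series. The arrays were chosen by their labels only, as liver at the highest dose and liver of the vehicle group, and every probe on them was described. All mice, controls included, carried the lacZ transgene of strain 40.6, were about 13 weeks old and were gavaged daily for 28 days, and tissue was taken 72 h after the last dose. RNA with an integrity number above 7.1 came from a random section of each liver, so the samples held every cell type of that section. It was labelled with Cy5 and hybridised against Cy3-labelled universal reference RNA from 11 mouse cell lines on Agilent mouse arrays. Every value below is log2(Cy5/Cy3) of a probe, the liver level relative to the reference, after loess within the array. In whole liver, fewer cells of a type and less RNA per cell cannot be told apart. The comparison asked which liver genes differed between mice given the highest dose of IP and mice given oil.

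IP is a polycyclic aromatic hydrocarbon formed when organic matter burns incompletely. Such compounds bind the aryl hydrocarbon receptor (AhR), a transcription factor that pairs with ARNT in the nucleus and binds DNA at a short core written GCGTG. Its targets include the cytochrome P450 enzymes Cyp1a1, Cyp1a2 and Cyp1b1, which oxidise such compounds, also to DNA-reactive products, and the repressors Ahrr and Tiparp, which dampen the receptor. The liver carries out much of the oxidation and conjugation of absorbed chemicals, beside its work in fat, sugar, nitrogen and plasma protein metabolism.

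Promoters of 3 of these receptor targets are shown because the targets were followed first, whatever their values. Each is the stretch from 250 bases before to 50 after the annotated start in RefSeq (GRCm38.p6), with every GCGTG, read on both strands, in capitals. The Cyp1a1 stretch lies on the plus strand at chr9:57697363-57697662, the Tiparp stretch on the plus strand at chr3:65528197-65528496 and the Ahrr stretch on the minus strand at chr13:74292282-74292581.
Cyp1a1: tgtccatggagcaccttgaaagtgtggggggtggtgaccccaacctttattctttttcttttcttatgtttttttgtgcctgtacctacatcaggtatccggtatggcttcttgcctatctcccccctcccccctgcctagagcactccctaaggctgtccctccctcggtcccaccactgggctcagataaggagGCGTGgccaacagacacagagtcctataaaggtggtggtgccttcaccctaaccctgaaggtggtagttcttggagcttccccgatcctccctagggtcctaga
Tiparp: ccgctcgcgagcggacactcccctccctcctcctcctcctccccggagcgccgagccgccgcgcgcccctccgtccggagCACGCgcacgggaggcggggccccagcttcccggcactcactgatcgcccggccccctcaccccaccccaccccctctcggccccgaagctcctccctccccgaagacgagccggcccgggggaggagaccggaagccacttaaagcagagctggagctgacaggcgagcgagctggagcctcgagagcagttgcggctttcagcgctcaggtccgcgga
Ahrr: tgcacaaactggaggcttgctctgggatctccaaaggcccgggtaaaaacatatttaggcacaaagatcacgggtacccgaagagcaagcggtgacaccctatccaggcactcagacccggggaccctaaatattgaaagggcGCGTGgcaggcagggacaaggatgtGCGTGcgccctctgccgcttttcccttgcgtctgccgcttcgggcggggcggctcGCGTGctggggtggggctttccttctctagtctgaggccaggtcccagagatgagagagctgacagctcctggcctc
The core was present 1 time in the Cyp1a1 stretch, 1 time in that of Tiparp and 3 times in that of Ahrr. It was found in 7 of the 10 matched AhR target promoters, or 70%, beside 32.4% of all 32851 promoters of that length. Promoters of Cyp1a2, Nqo1 and Ugt1a6a held none of these letters in the window. A match is a description of the letters and not a measured binding site.

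The treated arrays were of unlike brightness. On the vehicle arrays 38.9% to 42.9% of spots were well above background in Cy5, and on the arrays of treated mice 17, 18 and 19 it was 42.1% to 45.3%. Mice 16 and 20 stood apart at 79.2% and 75.5%, with a median Cy5 signal of 192 and 246.5 against 76 to 83 in vehicle mice, and 3 arrays of lower doses were bright as well. No vehicle array was. Where they differ, the counts of gene lists are therefore also given without mice 16 and 20. Vehicle arrays correlated with each other at 0.965 to 0.979 over probes and treated arrays at 0.911 to 0.982. The 9 arrays lay on 3 slides that each held both groups, but all vehicle arrays sat in array column 1 and all treated arrays in column 4, so position and dose cannot be told apart. Slide 1 held vehicle mice 1 and 2 and treated mouse 16, and slide 2 vehicle mouse 3 and treated mice 18 and 19. Slide 3 held vehicle mouse 5 and treated mice 17 and 20. Each difference within a slide below thus has a single mouse on 1 side, and only slide 2 had no bright array among these 9. Of 15 hepatocyte markers, all 15 were well above background in every vehicle liver.

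**Figure D1:**
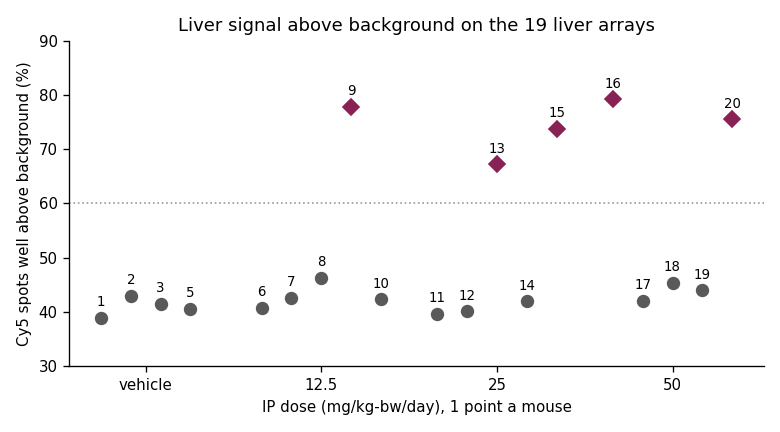
Share of spots well above background in Cy5 on each of the 19 liver arrays, by dose group, with mouse numbers; diamonds lie over 60%. Mice 16 and 20 of the 50 mg/kg group stand at 79.2% and 75.5%, while the 4 vehicle mice lie between 38.9% and 42.9%.

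No probe passed the test. Of 55681 probes, 0 (0%) had an adjusted p of at most 0.05 with a fold change of at least 1.5 (limma, Benjamini-Hochberg over all probes), and the smallest adjusted p was 0.176, for Slc1a5. An unadjusted p under 0.05 was reached by 3822 probes, or 6.86%. Without mice 16 and 20, 1 probe passed, for Pigt, with a limma adjusted p of 0.0077. With arrays weighted by their quality in limma, 16 probes passed.

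A nominal criterion, an unadjusted p under 0.05 with at least 1.2-fold difference, was used to describe the direction of the differences. It was met by 733 probes that were higher in treated livers (1.32%) and 2129 that were lower (3.82%), a lower share of 74.4%. Without mice 16 and 20 it was met by 992 higher (1.78%) and 1013 lower (1.82%), a lower share of 50.5%, and 873 probes met it in the same direction both ways. The lower share was 15.9% with median-centring in place of loess and 33.9% with the scanner's own ratio, so the balance of higher and lower probes depended on the bright arrays and on the scaling. Median-centring moved the median of all named genes to 0.30, and list medians under other scalings are given relative to that of all genes. Of the 132 genes that the rules name, 113 kept their direction relative to all genes under all 3 other scalings, as did every gene named below for its size of difference or its p.

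Most probes that met the criterion in the lower direction had a strong liver signal. Among the 19679 probes well above background in all 4 vehicle livers, 393 were higher and 1487 lower, with a median difference of -0.10 that was -0.01 without mice 16 and 20. Among the 30562 probes above background in no vehicle liver, 308 were higher and 332 lower. Groups did not overlap for 632 higher (1.14%) and 889 lower probes (1.60%), which together make 2.73%. By the brightest probe of each of 20018 named genes, 439 genes met the criterion as higher (2.19%) and 889 as lower (4.44%), with a median of -0.01 over all genes, and without mice 16 and 20 the counts were 546 (2.73%) and 400 (2.00%). Of the 20018 genes 10959 were well above background in all 4 vehicle livers, and most lists below hold mainly such genes. The all-gene shares set beside the lists therefore also count genes without that signal. Beside the 1487 lower of 19679 probes in that class, the lower shares of such lists stand out less.

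**Figure D2:**
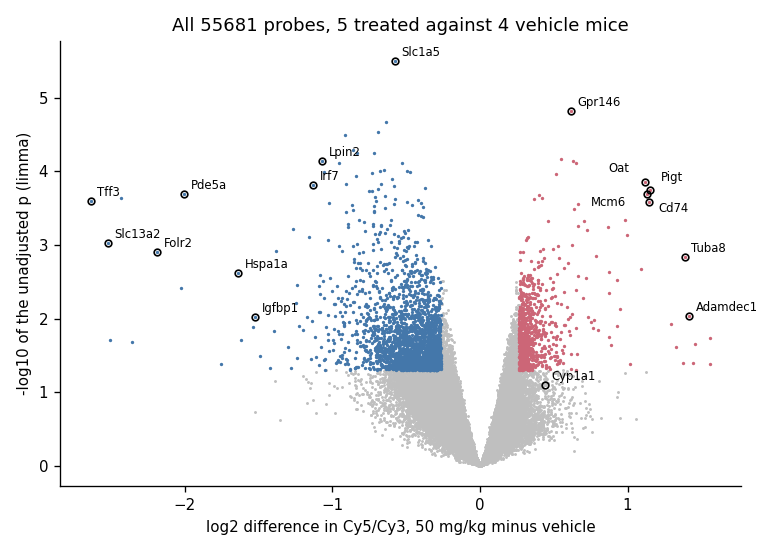
Log2 difference in Cy5/Cy3, 50 mg/kg minus vehicle, against -log10 of limma's unadjusted p for all 55681 probes; red and blue points are the 733 higher and 2129 lower probes of the nominal criterion, and circles are named genes. Among the circled genes Tff3, Slc13a2, Folr2 and Pde5a lie farthest to the left at -2.64 to -2.00, and Slc1a5 has the smallest p.

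No AhR target passed the test in liver. For Cyp1a1, log2(Cy5/Cy3) was 0.14, -0.08, -0.32 and 0.11 in vehicle mice 1, 2, 3 and 5, and 0.20, -0.19, 1.51, -0.08 and 0.55 in treated mice 16, 17, 18, 19 and 20, the order kept for all values that follow. Mouse 18 was highest and the groups overlapped. The probe was well above background in 0 of 4 vehicle and 3 of 5 treated livers. It was at least 1.08-fold higher in Cy5 with vehicle arrays set no lower than the lowest signal counted as above background. On the bright arrays of mice 16 and 20, 79.2% and 75.5% of all spots were above background, against 38.9% to 42.9% on vehicle arrays. Counts of arrays above background, here and below, therefore do not show that a gene became detectable. The fitted difference was 0.44 (SE 0.24, limma adjusted p 0.740). Relative to all genes, median-centring turned it to -0.16. Cyp1a2, the liver's constitutive member of the family, was 6.78, 6.57, 5.72 and 6.46 in vehicle and 6.42, 6.46, 5.64, 5.71 and 6.11 in treated livers. Its groups overlapped, with a difference of -0.32 (SE 0.25) that, relative to all genes, was 0.93 by the Cy5 signal alone and -0.02 with median-centring. Cyp1b1, mostly expressed outside the liver, was above background in 0 of 4 vehicle and 4 of 5 treated livers, at least 1.01-fold higher, and differed by 0.10 (SE 0.18).

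The repressors of the receptor lay slightly higher in treated livers. Tiparp, an ADP-ribosyltransferase, was -2.74, -2.57, -2.48 and -2.74 in vehicle and -2.73, -2.15, -2.05, -2.16 and -2.36 in treated livers. The difference was 0.34 (SE 0.13, limma adjusted p 0.716) and 0.52 without mice 16 and 20, with mouse 16 alone inside the vehicle range. Ahrr, which competes with AhR for ARNT, was -0.56, -0.38, -0.34 and -0.52 in vehicle and -0.21, -0.14, 0.10, -0.07 and -0.52 in treated livers. The groups overlapped, and the probe exceeded background in 0 vehicle and 3 treated livers, at least 1.14-fold higher, while its other probe differed by -0.25. Ugdh, which makes UDP-glucuronate for conjugation, was 0.32 to 0.67 in vehicle and 0.66 to 0.97 in treated livers, overlapping narrowly, a difference of 0.27 (SE 0.10). Aldh3a1, an aldehyde dehydrogenase, differed by -0.50, at -1.14 to -0.42 in vehicle and -1.72 to -1.08 in treated livers. Over the 13 measured targets, 3 met the nominal criterion as higher and 1 as lower (23.1% and 7.69%, beside 2.19% and 4.44% of all genes), and the list's median was -0.01, or 0.18 without mice 16 and 20. None of 8 members of the receptor complex, such as Ahr and Arnt, met it, and 1 was higher without mice 16 and 20.

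Genes of the NRF2 response and of conjugation and export showed small differences both ways. Abcc3 (chr11:94343295-94393017, GRCm38.p6), which exports conjugates into the blood, was 2.67, 2.83, 2.84 and 2.77 in vehicle and 3.22, 3.04, 3.56, 3.35 and 3.48 in treated livers. All 5 treated mice exceeded all 4 vehicle mice, and the difference was 0.55 (SE 0.11, limma adjusted p 0.291), nearly the same without mice 16 and 20 at 0.54. Slc37a1, a glucose-6-phosphate antiporter, was -0.37 to 0.01 in vehicle and 0.22 to 0.59 in treated livers, a difference of 0.63 (SE 0.12) without overlap. Among 26 NRF2 targets 4 met the criterion as higher, namely Abcc3, Ugdh, Gclc (0.30), the rate-limiting enzyme of glutathione synthesis, and Osgin1 (0.65), and 2 as lower, Gstm3 (-0.61), a glutathione transferase, and Me1 (-0.49), malic enzyme. These shares are 15.4% and 7.69% beside 2.19% and 4.44% of all genes, and without mice 16 and 20 the counts were 2 higher and 0 lower. The list's median was -0.09 and, relative to all genes, 0.18 with median-centring. Nqo1, the best known NRF2 target, was -1.98 to -1.58 in vehicle and -2.65 to -1.36 in treated livers, and its difference of -0.11 (SE 0.26) was 0.29 without mice 16 and 20. Of 45 conjugating enzymes 1 was higher, Nat1, and 3 were lower, Gstm3, Gstt1 (-0.29) and Sult1a1 (-0.51). These shares were 2.22% and 6.67% beside 2.19% and 4.44% of all genes. Nat1, above background in no vehicle liver, was at least 1.07-fold higher, but -0.09 relative to all genes with median-centring. Of 20 CAR and PXR targets 0 met the criterion either way. With mice 16 and 20 left out, the counts were 1 higher and 1 lower for conjugating enzymes and 1 higher and 0 lower for CAR and PXR targets.

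Targets of p53, the transcription factor that answers DNA damage, had no common direction. Cdkn1a, which arrests the cell cycle, was -2.85, -1.34, -2.43 and -2.93 in vehicle and -2.54, -3.01, -2.38, -2.60 and -2.83 in treated livers. Vehicle mouse 2 lay far above the rest, and without it the difference of -0.29 (SE 0.32) became 0.06. Mdm2, which degrades p53, differed by 0.02 (SE 0.09) and Ccng1, a direct target, by 0.18 (SE 0.13), both with overlap. Of 26 targets, 1 was higher by the nominal criterion, the death receptor Fas at 0.30, and 3 were lower, Btg2 (-0.57), Pmaip1 (-0.53, above background in no vehicle liver) and Trp53inp1 (-0.32). These shares are 3.85% and 11.5% beside 2.19% and 4.44% of all genes, and the median was -0.12, but 0.09 relative to all genes with median-centring. With mice 16 and 20 left out, the counts were 2 higher and 1 lower and the median -0.04, so the balance of the counts turned. Of the 26 targets 19 were well above background in all 4 vehicle livers, a class in which 1487 of 19679 probes were lower.

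The differences of greatest size were in genes lower in treated livers. By size of difference, 117 named genes had an unadjusted p under 0.05, at least 1.5-fold difference, signal above background in a whole group and no overlap, 26 of them higher and 91 lower, and 12 of each direction were taken. These values chose the genes, so they are a description. The exact two-sided permutation p of each was 0.0159, the smallest that 126 splits of the mice can give. The rule of no overlap fixed that p in advance, so it adds nothing. For genes with overlap the permutation p was larger, such as 0.254 for Cyp1a1, 0.127 for Acss2 and 0.0317 for Arg1.

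Tff3 (chr17:31125306-31129611, GRCm38.p6), a secreted trefoil peptide of mucous and bile duct epithelium, was 6.74, 6.31, 4.70 and 6.66 in vehicle livers and 3.33, 3.74, 4.06, 3.46 and 2.74 in treated livers. All treated mice were below all vehicle mice, of which mouse 3 was lowest, and the level was 6.22-fold lower (log2 difference -2.64, SE 0.59, limma adjusted p 0.304). Of 10 cholangiocyte markers, Tff3 and Sox9 (-0.64) met the nominal criterion (20% lower beside 4.44% of all genes), 1 of the 10 did without mice 16 and 20, and the list's median was -0.02. Slc13a2, a citrate and dicarboxylate transporter, was 4.71, 3.61, 3.64 and 4.92 in vehicle and 1.10, 2.94, 1.78, 2.59 and 0.10 in treated livers. The bright arrays of mice 16 and 20 were lowest, and the difference of -2.52 (SE 0.64) was -1.78 without them. Folr2, a folate receptor of macrophages, was 3.30, 3.28, 3.05 and 3.41 in vehicle and 0.49, 2.98, 0.65, 0.81 and 0.43 in treated livers. Mouse 17 lay just under the vehicle mice and the other 4 far below, for a difference of -2.19 (SE 0.58). The other 13 measured macrophage markers did not meet the criterion with or without mice 16 and 20, and the list's median was -0.18, or 0.05 without mice 16 and 20.

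Pde5a (chr3:122729158-122859374), which hydrolyses cyclic GMP, was 2.30, 2.65, 2.37 and 2.40 in vehicle and -0.33, 1.07, 0.43, 0.80 and 0.15 in treated livers. The gap between the groups exceeded the range of the vehicle mice, and the difference was -2.00 (SE 0.44, 4.01-fold), or -1.66 without mice 16 and 20. Cib3, a calcium- and integrin-binding protein, was 5.43, 4.36, 5.46 and 5.56 in vehicle and 4.07, 2.24, 3.04, 4.02 and 2.54 in treated livers, with vehicle mouse 2 nearest to the treated mice. Its difference was -2.02 (SE 0.61). Slc49a4, a membrane transporter also called Dirc2, was 2.40 to 2.78 in vehicle and 0.23 to 2.02 in treated livers, a difference of -1.38 (SE 0.36). A1cf, the partner of the enzyme that edits apolipoprotein B mRNA, was 5.88 to 6.64 in vehicle and 4.11 to 5.66 in treated livers, and its difference of -1.23 was -0.76 without mice 16 and 20. The Cy3 reference spot of Tff3, Slc13a2, Folr2, A1cf and Cib3 was not well above background on some arrays, and the same held for Cyp1a1, Igfbp1, Adamdec1, S100a9 and Fcmr.

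Among the 12 genes higher by size of difference were Cd74, Cd79b and Fcmr, which are expressed in B cells among others. Cd74, the invariant chain of MHC class II, was -1.08, -0.71, -0.17 and -1.35 in vehicle and -0.08, 0.23, 0.55, 0.37 and 0.49 in treated livers. The highest vehicle mouse lay close under the lowest treated mouse, and the difference was 1.14 (SE 0.25, limma adjusted p 0.304). Cd79b, a chain of the B cell receptor complex, was -3.61, -4.43, -3.68 and -3.63 in vehicle and -3.03, -3.28, -2.91, -3.11 and -2.49 in treated livers, without overlap, a difference of 0.87 (SE 0.25). Fcmr, the IgM receptor, was above background in 0 of 4 vehicle and 5 of 5 treated livers, 0.12 to 0.37 against 0.96 to 1.49, and at least 1.67-fold higher. Of 11 measured B cell markers 2, Cd79b among them, met the criterion (18.2% beside 2.19% of all genes), also without mice 16 and 20. Of the 11, 6 had a difference under 0, the list's median was -0.04, and the mean over the list was -1.34 to -1.10 in vehicle mice and -1.19 to -0.97 in treated mice. None of 16 T and NK cell markers met it, with 1 higher without mice 16 and 20, and Ly6c1, a surface antigen of endothelium and T cells, was higher by 0.93 (SE 0.34) by its chosen probe, but its other probe differed by -0.15. S100a9, a calcium-binding protein of neutrophils, was 1.31, 2.21, 2.88 and 1.68 in vehicle and 2.73, 4.29, 3.39, 2.96 and 1.80 in treated livers. Mice overlapped, and the difference of 1.02 (SE 0.47) was -0.05 relative to all genes with the scanner's own ratio.

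Adamdec1, a metalloprotease of macrophages, was 1.00, 1.94, 1.93 and 1.15 in vehicle and 2.09, 3.56, 3.66, 3.09 and 2.23 in treated livers. The bright arrays of mice 16 and 20 were the lowest treated values, and the difference was 1.42 (SE 0.49) with them and 1.93 without. Tuba8, an alpha tubulin, was -3.11 to -2.80 in vehicle and -2.12 to -0.83 in treated livers, here with the bright arrays highest (1.39, SE 0.37, and 1.03 without them). Pigt, a subunit of the complex that attaches GPI anchors to proteins, was -0.94, -1.24, -0.94 and -1.06 in vehicle and -0.21, 0.26, 0.99, 0.36 and -0.84 in treated livers. Mice 16 and 20 were again lowest, the difference was 1.16 (SE 0.25), and without them it was 1.58 and passed the test as given above. Lhpp, a histidine phosphatase, Anp32a, a histone chaperone, Mdfi, an inhibitor of myogenic factors, and F2r, the thrombin receptor, were higher by 1.00, 0.95, 0.88 and 0.75, with a second Anp32a probe at -0.21.

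**Figure D3:**
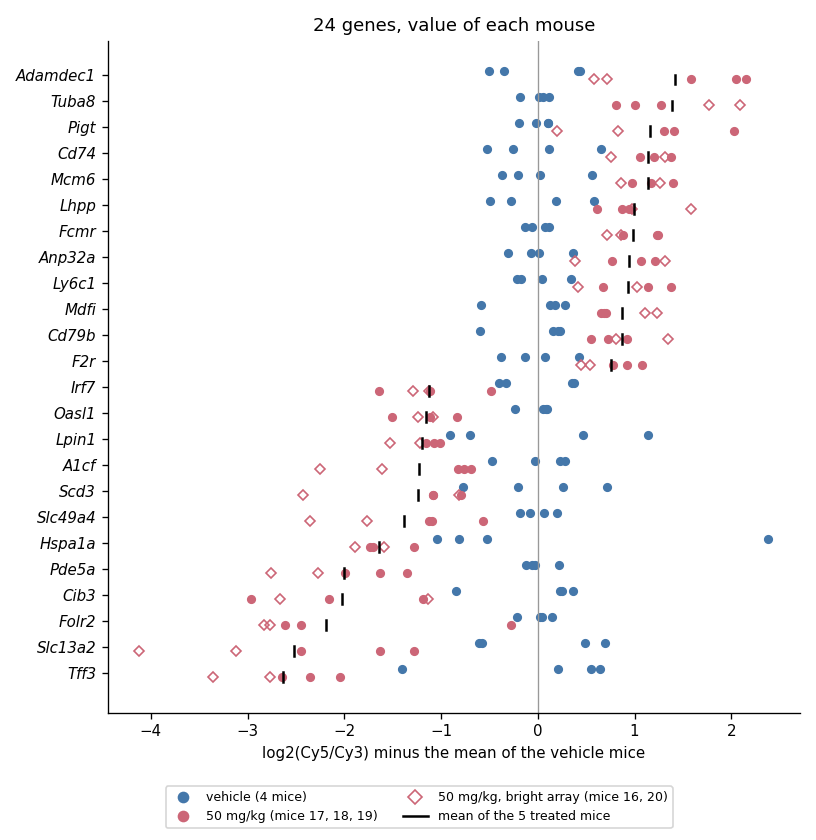
Log2(Cy5/Cy3) of each mouse minus the vehicle mean for the 12 higher and 12 lower genes of greatest difference; blue points are vehicle mice, red points treated mice, open diamonds the bright arrays of mice 16 and 20, and black ticks treated means. No gene's groups overlap, by the rule that chose them, and mouse 17 lies near the vehicle mice for Folr2.

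By the nominal criterion, genes of fatty acid and triglyceride synthesis were lower and none was higher. Of 25 measured members 8 met the nominal criterion as lower and 0 as higher (32% beside 4.44% of all genes), and the median was -0.48. Relative to all genes it was -0.26 by the Cy5 signal alone, -0.22 with median-centring and -0.66 with the scanner's ratio, and without mice 16 and 20 it was -0.26, with 3 lower members. Within slides 1, 2 and 3, each with a single mouse on 1 side, it was -0.02, -0.62 and -0.44. Lpin1, a phosphatidate phosphatase of triglyceride synthesis, was 0.94, 2.10, 2.78 and 0.74 in vehicle and 0.43, 0.63, 0.49, 0.57 and 0.11 in treated livers. Vehicle mice varied widely but stayed above the treated mice, for a difference of -1.20 (SE 0.44). Its paralogue Lpin2 was 1.88, 2.45, 2.84 and 1.84 in vehicle and 1.10, 1.25, 1.14, 0.88 and 1.58 in treated livers, also without overlap (-1.07, SE 0.21, limma adjusted p 0.291), and -1.17 without mice 16 and 20. Acss2, which makes acetyl-CoA from acetate, differed by -0.93, Acacb, the mitochondrial acetyl-CoA carboxylase, by -0.83, and Fasn, fatty acid synthase, by -0.77, all with overlap. Me1, Mlxipl and Agpat2 were the other members, at -0.49, -0.30 and -0.26, where relative to all genes Mlxipl was 0.15 by the Cy5 signal alone. Scd3, a stearoyl-CoA desaturase outside the list, was 3.51, 2.47, 3.97 and 3.04 in vehicle and 2.43, 2.16, 2.45, 2.16 and 0.82 in treated livers, a difference of -1.24 (SE 0.54) with a gap of little width.

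Cholesterol synthesis showed the same direction in fewer genes. Of 25 members 7 met the criterion as lower and 1 as higher (28% and 4% beside 4.44% and 2.19% of all genes). The list's median was -0.28 and, relative to all genes, -0.24 by the Cy5 signal alone, 0.02 with median-centring and -0.40 with the scanner's ratio, so that under median-centring the list did not stand below all genes. Insig1, a feedback regulator of the pathway, was 3.31, 2.10, 3.31 and 2.79 in vehicle and 1.96, 2.20, 2.19, 2.13 and 1.34 in treated livers. Mouse 20 was lowest, the groups overlapped, and the difference was -0.91 (SE 0.31, limma adjusted p 0.715). Mvd differed by -0.77, Lss by -0.63, Sqle by -0.49, Fdps by -0.41 and Fdft1 by -0.35, the last with a second probe at 0.03. Without mice 16 and 20, 3 members were lower, 0 higher and the median was -0.24, and within slides 1, 2 and 3 it was -0.06, -0.51 and -0.44.

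Nitrogen metabolism, a periportal task of the liver, held more lower than higher genes by the criterion. In the urea cycle and amino acid breakdown 9 of 26 genes met the criterion as lower and 1 as higher (34.6% and 3.85% beside 4.44% and 2.19% of all genes). The list's median was -0.41 and, relative to all genes, -0.06 by the Cy5 signal alone, -0.15 with median-centring and -0.50 with the scanner's ratio. Arg1, which releases urea, was 8.48, 8.51, 8.06 and 8.34 in vehicle and 7.66, 8.14, 7.69, 7.89 and 7.26 in treated livers. Mouse 17 alone lay within the vehicle range, with a difference of -0.62 (SE 0.21) and -0.44 without mice 16 and 20. Cps1, the first enzyme of the urea cycle, differed by -0.65 and Otc, the next, by -0.49, and these were -0.26 and -0.31 without the bright arrays. Hal, Amdhd1, Got1, Agxt, Bhmt and Tat, which break down histidine, transfer amino groups, methylate homocysteine or degrade tyrosine, differed by -0.65, -0.79, -0.75, -0.50, -0.42 and -0.54, and Agxt by 0.06 by the Cy5 signal alone. The list's count was 5 lower and 1 higher without mice 16 and 20, with a median of -0.28, and within slides 1, 2 and 3 the median was -0.32, -0.11 and -0.48. Oat, the pericentral ornithine aminotransferase, went the other way at 1.58, 2.51, 2.12 and 1.19 in vehicle and 3.23, 2.44, 3.23, 2.93 and 3.03 in treated livers. Mouse 17 alone overlapped the vehicle mice, and the difference was 1.12 (SE 0.24, limma adjusted p 0.304). Of 18 periportal genes 4 were lower and 0 higher (22.2% lower beside 4.44% of all genes), with a median of -0.43 and, relative to all genes, -0.16 by the Cy5 signal alone, -0.13 with median-centring and -0.53 with the scanner's ratio. Without mice 16 and 20 the periportal counts were 1 higher and 1 lower and the median -0.24. Of 22 pericentral genes Lect2 was lower (-0.68, or 0.19 by the Cy5 signal alone) and Oat higher, 4.55% each way, with a median of 0.02. Of the 15 general hepatocyte markers 3 were lower (20% beside 4.44% of all genes) and 0 higher, also without mice 16 and 20. Their median was -0.39 and, relative to all genes, -0.03 by the Cy5 signal alone, -0.14 with median-centring and -0.56 with the scanner's ratio. The 3 lower markers were Apoh (-0.58), a plasma apolipoprotein, Tat, and the transcription factor Hnf4a at -0.50, or 0.25 by the Cy5 signal alone. Their part in the lower lists was not tested.

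Glucocorticoid-responsive genes and glucose metabolism shared some lower members. Igfbp1, a secreted binder of insulin-like growth factors, was 7.73, 7.99, 7.18 and 7.53 in vehicle and 6.13, 5.66, 7.62, 4.96 and 6.06 in treated livers. Mouse 18 lay within the vehicle range and the other 4 treated mice below it, and the difference was -1.52 (SE 0.53, limma adjusted p 0.715). Pck1, the gateway enzyme of glucose formation, was 9.22, 10.07, 9.01 and 8.85 in vehicle and 7.41, 8.94, 8.34, 8.75 and 7.74 in treated livers, with mouse 17 alone inside the vehicle range (-1.05, SE 0.33, and -0.61 without mice 16 and 20). These were the 2 lower genes of 20 in glucose metabolism (10% beside 4.44% of all genes), where 0 were higher. All 20 were well above background in all 4 vehicle livers, a class in which 1487 of 19679 probes were lower. The median of that list was -0.29 and, relative to all genes, -0.05 by the Cy5 signal alone, -0.01 with median-centring and -0.41 with the scanner's ratio. The counts without mice 16 and 20 were 0 higher and 1 lower, with a median of -0.16. Of 15 glucocorticoid-responsive genes 5 were lower and 0 higher (33.3% lower beside 4.44% of all genes). Among the lower were Zbtb16 (-1.09), a transcription factor, Tsc22d3 (-0.76), known as GILZ, and Ddit4 (-0.73), an inhibitor of mTORC1. The glucocorticoid list's median was -0.29 and, relative to all genes, -0.37 by the Cy5 signal alone, -0.02 with median-centring and -0.45 with the scanner's ratio, so that under median-centring the list was close to all genes. Without the bright arrays it was -0.47 with 5 members lower. Within slides 1, 2 and 3 it was -0.23, -0.81 and -0.08.

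Heat shock chaperones included 5 lower and 0 higher of 16 (31.2% lower beside 4.44% of all genes). Their median was -0.17 and, relative to all genes, -0.13 by the Cy5 signal alone, 0.09 with median-centring and -0.28 with the scanner's ratio, above all genes under median-centring. Hspa1a, inducible Hsp70, was 0.90, 3.81, 0.38 and 0.61 in vehicle and -0.46, -0.31, -0.28, 0.14 and -0.17 in treated livers. Vehicle mouse 2 stood far above the others, the difference of -1.64 (SE 0.47) was -0.85 without that mouse, and the value is uncertain because Hspa1b is nearly identical. Mouse 2 was also the highest vehicle value of Dnajb1 (0.47 against -0.71 to -0.61), a partner of Hsp70 that differed by -0.71. The list's median within slides 1, 2 and 3 was -0.19, -0.16 and 0.22, which turned on slide 3. Bag3, Cryab and Hspe1 differed by -0.59, -0.37 and -0.78, where 1 of the other Hspe1 probes lay at 0.02. Among 24 genes of endoplasmic reticulum stress 3 chaperones were higher, Calr (0.33), Hsp90b1 (0.47) and Sdf2l1 (0.51), and Herpud1 was lower at -0.93. These shares were 12.5% and 4.17% beside 2.19% and 4.44% of all genes, and without mice 16 and 20 the counts were 1 higher and 1 lower. The heat shock counts were 0 higher and 5 lower without them.

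Interferon-stimulated genes were lower in 5 of 34 cases (14.7% beside 4.44% of all genes) and higher in 0. Irf7, the transcription factor that amplifies the interferon response, was 0.95, 0.97, 0.19 and 0.26 in vehicle and -0.53, -1.04, 0.12, -0.52 and -0.69 in treated livers. The groups did not overlap, and the difference was -1.13 (SE 0.24, limma adjusted p 0.304). Oasl1, which restrains Irf7 translation, was -0.08, -0.06, -0.37 and -0.04 in vehicle and -1.38, -1.25, -1.64, -0.97 and -1.22 in treated livers, without overlap (-1.15, SE 0.29). Oas2, Dhx58 and Ddx58 differed by -0.44, -0.43 and -0.27 and by -0.28, -0.18 and -0.13 without mice 16 and 20. The list's median was -0.14, and without them it was 0.02, with 2 members lower and 1 higher. Relative to all genes the median was -0.15 by the Cy5 signal alone, 0.12 with median-centring and -0.19 with the scanner's ratio, so that median-centring turned it, and within slides 1, 2 and 3 it was -0.42, 0.26 and -0.38, which turned on slide 2.

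**Figure D4:**
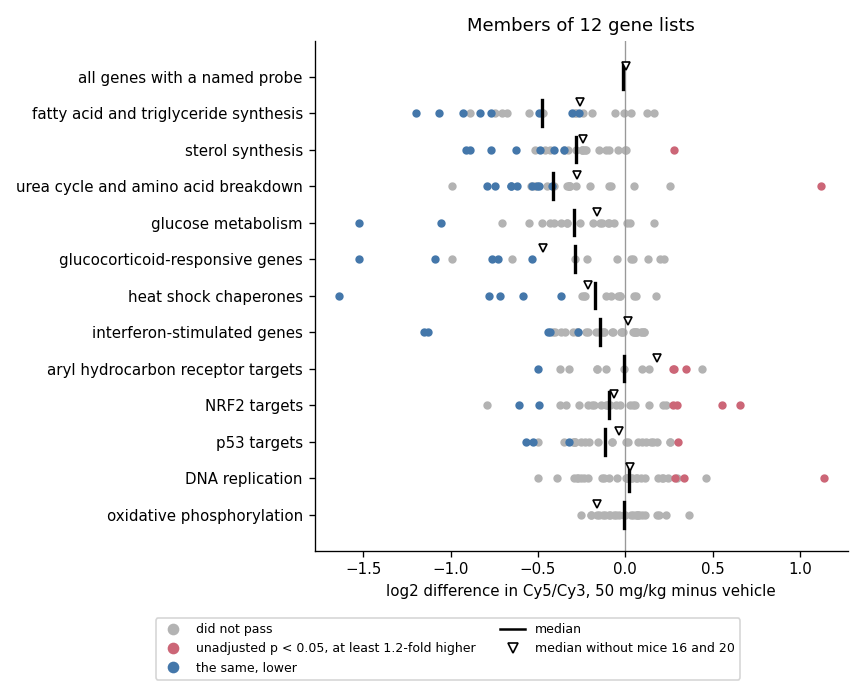
Log2 difference, 50 mg/kg minus vehicle, of each measured member of 12 gene lists; coloured points met the nominal criterion, bars are list medians and triangles medians without mice 16 and 20. The fatty acid, amino acid, glucose, glucocorticoid and sterol lists lie to the left at -0.48, -0.41, -0.29, -0.29 and -0.28. The other scalings in the text move these medians.

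Some genes of DNA replication and mitosis met the criterion, more of them higher than lower. Mcm6 (chr1:128331575-128359705), a subunit of the replicative helicase, was -5.72, -5.50, -4.96 and -5.88 in vehicle and -4.25, -4.34, -4.12, -4.54 and -4.65 in treated livers. All treated mice were above all vehicle mice, and the difference was 1.13 (SE 0.25, 2.19-fold, limma adjusted p 0.304). Tipin, which protects stalled forks, was -3.00 to -2.57 in vehicle and -2.45 to -2.12 in treated livers (0.52, SE 0.11). Of 30 DNA replication genes 3 were higher, Mcm6, Mcm4 (0.28) and Rrm1 (0.34), and 0 lower (10% higher beside 2.19% of all genes). These counts were the same without mice 16 and 20, and the list's median was 0.02. Of 25 mitosis genes 2 were higher, Cdc20 (0.70) and Spc25 (0.49), and Top2a was lower at -0.49, with mouse 20 lowest at -5.00. These shares were 8% and 4% beside 2.19% and 4.44% of all genes, and without mice 16 and 20 the counts were 2 higher and 0 lower. The mean log2 ratio over the replication list was -2.63 to -2.37 in vehicle mice and -2.66 to -2.28 in treated mice, below the reference RNA.

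By p, 5 genes higher and 5 lower were taken, again as a description. Slc1a5, a glutamine transporter, was -2.37, -2.27, -2.50 and -2.41 in vehicle and -2.98, -3.10, -2.90, -2.82 and -3.03 in treated livers. Values within each group were close and the groups well apart, with a difference of -0.58 (SE 0.09, limma adjusted p 0.176), but its other probe differed by 0.24 and relative to all genes it was -0.30 with median-centring. Gpr146, an orphan G protein-coupled receptor, was 2.17, 2.26, 2.42 and 2.37 in vehicle and 3.23, 2.87, 2.81, 2.82 and 2.88 in treated livers, where mouse 16 was highest (0.62, SE 0.11, other probe -0.15). Cda, cytidine deaminase, was -0.42 to 0.01 in vehicle and 0.24 to 0.87 in treated livers (0.65, SE 0.13). Ip6k2, an inositol phosphate kinase, was 0.32 to 0.98 against -0.35 to 0.14 (-0.96, SE 0.19). The kinase Pim3 differed by -0.49. Abcc3, Slc37a1, Tipin and Lpin2, described above, were also among these 10.

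The lower doses were measured against the same 4 vehicle mice, so their differences are not independent and are given side by side only. The nominal criterion was met by 822 probes at 12.5 mg/kg (1.48%), 1689 at 25 mg/kg (3.03%) and 2862 at 50 mg/kg (5.14%), with 5 mice a dose. Mouse 9 at 12.5 mg/kg and mice 13 and 15 at 25 mg/kg also had bright arrays, and array column mostly rose with dose. Without mice 16 and 20 the 50 mg/kg count was 2005, and the lower doses were not counted without their bright arrays. Dose, brightness and position cannot be told apart in these counts. Differences at 12.5 and 25 mg/kg were -1.43 and -2.46 for Tff3, -1.14 and -1.65 for Slc13a2, -1.54 and -1.73 for Folr2 and -0.45 and -1.19 for Pde5a, all smaller than at 50 mg/kg. Slc1a5 stood at -0.39 and -0.45, Irf7 at -0.87 and -1.08, Lpin2 at -0.23 and -0.35 and Igfbp1 at -1.17 and -0.30. For Abcc3 they were 0.36 and 0.66, for Oat 0.46 and 0.55, for Cd74 0.59 and 0.74 and for Mcm6 -0.15 and 0.55. Within slides 1, 2 and 3 the 50 mg/kg difference was -3.19, -0.94 and -3.41 for Tff3, -2.80, -1.75 and -1.78 for Pde5a, -1.49, -0.40 and -1.13 for Irf7, 0.46, 0.61 and 0.49 for Abcc3 and 0.82, 0.64 and 1.71 for Cd74.

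**Figure D5:**
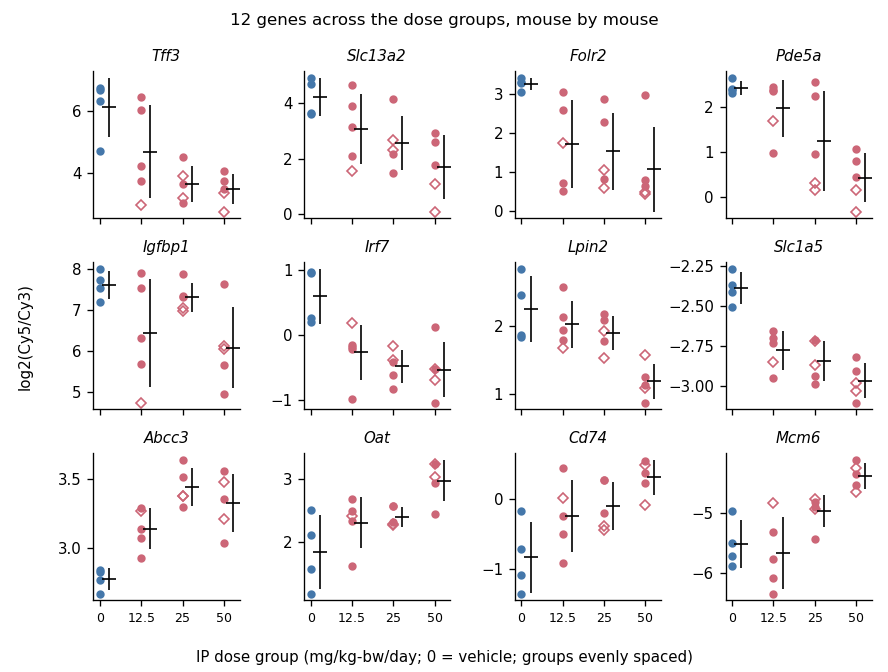
Log2(Cy5/Cy3) of 12 genes in every liver by dose group; points are mice, open diamonds bright arrays, and black crosses mark the mean ± SD of each group. The groups share 4 vehicle mice, and Tff3, Slc13a2 and Pde5a have their lowest mean at 50 mg/kg.

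Whether the 50 mg/kg difference in liver differed from that in lung was tested directly, in 1 limma fit of both tissues. It did for 7 probes (0.0126%, adjusted p of at most 0.05 over all probes), 2 of them without a gene name. Lung and liver came from the same mice, except that 1 vehicle mouse gave lung only, and this fit did not use the pairing. With mouse as a random block 13 probes passed, with slide as a random block 13 and with median-centring 1. Without the liver arrays of mice 16 and 20 it was 9, and with each liver array left out in turn 3 to 13. The lung arrays of those mice stayed in the fit. Ahrr was higher by 2.50 in lung and 0.28 in liver (difference -2.22, limma adjusted p 0.0373), with its liver signal above background in 0 vehicle and 3 treated mice. Pde5a and Tff3 differed by 0.01 and -0.04 in lung, so the tissues were apart by -2.02 and -2.59. Septin3 (1.09) and Hoxa7 (-1.09) were the other named genes, Septin3 above background in no liver of either group. Cyp1a1 was higher by 4.24 in lung and Cyp1b1 by 3.64, but their tests of the difference gave limma adjusted p of 0.322 and 0.0819. Against forestomach 0 probes (0%) passed.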

How the data were processed

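Liver RNA of 5 mice given IP and 4 given vehicle was measured against reference RNA on 2-colour arrays. Per the file headers, the deposited intensities are median Cy5 and Cy3 signals per spot extracted with Agilent Feature Extraction 11.0.1.1 for liver and 10.7.3.1 for the other tissues, with no background subtracted, and the deposited log10 ratio is the software's own, background-subtracted and dye-normalized. From 59305 spots that were not controls, log2(Cy5/Cy3) was taken from the median signals and loess was applied within each array. Outlier spots were then left out, and the spots of each of 55681 probes were averaged. The series matrix columns of liver were not used, because their probe names are displaced.

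All 19 liver arrays in 4 groups entered 1 limma fit (limma 3.58.1, R 4.3.3) with Benjamini-Hochberg adjustment. Probes at or under an adjusted p of 0.05 that also differed by 1.5-fold or more were called. The nominal criterion, an unadjusted p under 0.05 and at least 1.2-fold difference, is a description. Single genes also had a two-sided exact permutation test over the 9 mice (scipy 1.17.1). Each array was 1 mouse.

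A symbol was given to 26413 probes (20018 genes, GRCm38.p6 RefSeq). Named were the 12 genes of greatest difference in each direction among non-overlapping genes, the 5 of smallest p in each direction, the members of 41 lists (758 genes, 744 with a probe) that met the nominal criterion with their brightest probe, and 9 AhR and p53 targets whatever their values. The members and lists were chosen with earlier results of these data known. Alternatives were background correction (normexp), median-centring, Aquantile, the software's ratio, Cy5 alone, keeping outlier spots, dropping dim probes, a block for the slide, the 2 groups alone, a trended robust variance, array weights and each mouse left out. Leaving out the arrays with over 60% of spots above background was chosen after seeing the data. Scripts were tested on simulated data. Some genes that the rules name are not reported here.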

Additional observations from a re-analysis of the deposited data

Results flagged for a closer look

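In 19 of 264 values of a named gene in a group, 1 mouse lay apart from the others by Dixon's critical value for its group size, where chance flags about 1 in 20. Vehicle mouse 2 was the lone high value of Hspa1a (3.81) and Dnajb1 (0.47) and the lone low value of Cib3 (4.36) and Cd79b (-4.43). Vehicle mouse 3 was the lone low value of the fatty acid binder Fabp1 (10.43), of Serpina3m (7.84) and of Oasl1 (-0.37). Treated mouse 17 was the lone high value of Folr2 (2.98), Cyp17a1 (2.77), Sdf2l1 (2.25) and Mvd (1.00). Treated mouse 20, whose array was bright, was the lone low value of Otc (5.88), Hal (5.22), Insig1 (1.34), Scd3 (0.82), Aldh3a1 (-1.72) and Top2a (-5.00). Mouse 16, also bright, was the lone high value of Gpr146 (3.23), and mouse 18 that of Cyp1b1 (-1.99).

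The 50 mg/kg difference in liver and that in lung were unlike for 5 named genes by the test of the difference in limma. Liver minus lung was -2.59 for Tff3, -2.22 for Ahrr, -2.02 for Pde5a, -1.09 for Hoxa7 and 1.09 for Septin3. In liver the Septin3 probe was above background in no mouse of either group and the Ahrr probe in no vehicle mouse, so these values carry that limit.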

How the results depend on the processing

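The count of probes that passed the test, 0, was 1 with the vehicle and 50 mg/kg groups fitted alone, 1 without mice 16 and 20, 1 without all 5 bright liver arrays, 1 with slide as a block and mice 16 and 20 left out, and 16 with array weights, and it was 0 with each mouse left out. At an unadjusted p under 0.05 with at least 1.5-fold difference it was 599. The 2862 probes of the nominal criterion became 12053 with median-centring, 4456 with the scanner's ratio, 1805 with slide as a block and mice 16 and 20 left out, 738 at an unadjusted p under 0.01, and 1673 to 4233 with each mouse left out. The 733 higher probes became 10141 with median-centring, 2945 with the scanner's ratio, 1158 with the Cy5 signal alone, 404 without dim probes, 1193 with array weights, 1726 without the 5 bright arrays and 606 to 1036 with each mouse left out. The 2129 lower probes became 1013 without mice 16 and 20, 820 with slide as a block as well, and 1018 to 3197 with each mouse left out. That count was 1288 without vehicle mouse 1, 1018 without treated mouse 20 and 3197 without treated mouse 17. The 103 listed genes that met the criterion became 209 with median-centring and 60 to 155 with each mouse left out, at 60 without vehicle mouse 1, 62 without mouse 20 and 155 without mouse 17. The cause of these moves was not tested.

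No paired analysis was possible for liver at 50 mg/kg against vehicle because the 2 groups shared no mouse number. With mouse as a random block in the joint fit of both tissues, the 7 probes that differed between liver and lung became 13 and the 0 against forestomach stayed at 0. The 7 became 13 with slide as a random block, 1 with median-centring and 3 to 13 with each liver array left out in turn. It was 3 without that of vehicle mouse 5, 4 without that of vehicle mouse 1, mouse 19 or mouse 20, and 13 without that of mouse 17. Against forestomach the range was 0 to 2, with 2 without the liver array of vehicle mouse 3. The arrays of the other tissue stayed in these fits.

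With array weights, Abcc3, Cda, Gpr146, Ip6k2, Lpin2, Slc1a5 and Pigt had a limma adjusted p of at most 0.05. Median-centring, which moved all named genes together, took Cdkn1a to 0.28, Cyp1a2 to 0.27 and Pim3 to 0.062, but relative to all genes these were -0.02, -0.02 and -0.23. Direction turned for Cdkn1a (-0.47 to 0.065 with each mouse left out, the last without vehicle mouse 2), Cyp1a2 (0.92 by the Cy5 signal alone) and Cyp1b1 (-0.030 to 0.18 with each mouse left out, under 0 without vehicle mouse 2 or mouse 18). Nqo1 turned to 0.58 with median-centring, 0.33 with the scanner's ratio, 0.13 with array weights, -0.24 to 0.086 with each mouse left out (0.086 without mouse 20) and 0.29 without the bright arrays, with or without slide as a block. Mdm2, near 0, was -0.10 by the Cy5 signal alone, -0.030 with slide as a block, -0.0084 with slide as a block and the bright arrays left out, and -0.031 to 0.063 with each mouse left out. The small number of arrays limits the precision, and signals of probes not above background give bounds only.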

Other observations

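Plasma protein genes were mixed. Of 30 acute phase genes 1 met the nominal criterion as higher and 3 as lower (3.33% and 10.0% beside 2.19% and 4.44% of all genes), and without mice 16 and 20 the counts were 0 higher and 1 lower. The higher was Cp (0.37), ceruloplasmin, and the lower were Itih4 (-0.57, or 0.09 by the Cy5 signal alone), a protease inhibitor heavy chain, and the serpins Serpina3k (-0.78) and Serpina3m (-0.81). Of 24 complement genes C3, the central component, was higher at 0.77, with 5.02 to 5.82 in vehicle and 5.75 to 6.84 in treated livers. C9, the pore-forming component, was lower at -0.90, with 6.63 to 7.26 against 4.82 to 6.62, and so were C4bp (-0.57) and Cfi (-0.47, or 0.15 by the Cy5 signal alone), both inhibitors. Complement shares were 4.17% and 12.5%, and without mice 16 and 20 the counts were 0 higher and 1 lower. Of these lists 29 acute phase and 23 complement genes were well above background in all 4 vehicle livers. In that class 1487 of 19679 probes were lower.

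Socs2, an inhibitor of growth hormone signalling, was -0.61, 1.70, -0.75 and -0.14 in vehicle and 2.32, 1.91, 1.16, 1.78 and 0.88 in treated livers, a difference of 1.56 (SE 0.60, limma adjusted p 0.719) with overlap. It was the only 1 of 17 male-biased and growth hormone genes to meet the criterion, and of 13 female-biased genes only Cyp17a1, a steroid hydroxylase, did, at -1.03. In the WNT pathway 4 of 29 genes were lower and 0 higher, Dvl3 (-0.90) and Dvl2 (-0.39), which relay the signal, Gsk3b (-0.46), which phosphorylates beta-catenin, and Tle1 (-0.40), a corepressor (13.8% lower beside 4.44% of all genes). Without mice 16 and 20 the WNT counts were 1 higher and 3 lower. Of 34 PPAR-alpha targets Fabp1 (-0.74) and the receptor gene itself, Ppara (-0.41), were lower and 0 higher, and of 21 clock genes Rora was lower at -0.58. In bile acid synthesis and transport 1 of 21 was lower, Slc27a5 (-0.38, or 0.15 by the Cy5 signal alone). Of 25 transporters 3 were higher, with Abcc3 and Slc37a1 the amino acid transporter chain Slc3a2 (0.27), and 3 lower, Slc1a5, Slc7a5 (-0.62), the partner of Slc3a2, and Abcb1b (-0.29), a drug exporter. None of 26 oxidative phosphorylation genes met the criterion. Lower shares, beside 4.44% of all genes, were 5.88% for PPAR-alpha targets and 4.76% for clock and for bile acid genes. They were 12% for transporters and 7.69% for female-biased genes. Higher shares were 12% for transporters and 5.88% for male-biased genes, beside 2.19% of all genes. The counts without mice 16 and 20 were 1 higher and 1 lower for PPAR-alpha targets, 0 higher and 1 lower for clock genes, 1 higher and 1 lower for bile acids, 2 higher and 1 lower for transporters, 1 higher and 0 lower for female-biased and 1 higher and 0 lower for male-biased genes.

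Of 12 liver endothelial markers Kdr, a receptor of vascular growth factors, was lower at -0.59 and Fcgr2b, an Fc receptor of sinusoids, higher at 0.36. Of 12 stellate cell and fibroblast markers Lum (-0.83) and Timp1 (-0.47) were lower. Among 9 neutrophil markers S100a9 alone met the criterion. Of 10 skeletal muscle markers Actn3 was lower at -0.53, above background in 1 of the 9 livers. None of the erythroid (7), fat cell (8), exocrine pancreas (13) and intestine (10) markers did. Lower shares were 8.33% for endothelial, 16.7% for stellate cell and 10% for muscle markers, beside 4.44% of all genes. Higher shares were 8.33% for endothelial and 11.1% for neutrophil markers, beside 2.19% of all genes. The counts without mice 16 and 20 were 2 higher and 1 lower for endothelial, 0 higher and 0 lower for stellate cell, 2 higher and 0 lower for neutrophil, 0 higher and 0 lower for muscle and 1 higher and 0 lower for erythroid markers. Of the probes that met the criterion 1155 had no gene symbol, and 926 of these were lower.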
